A study of Mus musculus with 12 samples.

Results

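The genes described here make up the machinery that moves new secretory and membrane proteins into the endoplasmic reticulum (ER) and folds them there. Members were chosen by symbol, with no rule on their values, though earlier results of these data were known. They are the signal recognition particle (SRP) and its receptor, the Sec61 channel with Sec62 and Sec63, the translocon-associated protein (TRAP) complex encoded by Ssr1 to Ssr4, the signal peptidase complex, the protein disulfide isomerases, 6 ER chaperones and 4 regulators of the unfolded protein response. The rule found 40 of the 52459 gene symbols in the table, and 39 of them passed a filter of at least 1 TPM in at least 3 of the 12 libraries. The remaining one, Pdia2, a pancreatic disulfide isomerase, lay at or under 0.41 TPM in every library and was not tested. The libraries are bulk RNA-seq of choroid plexus dissected from mice of the B6 strain, the tissue inside the brain ventricles that makes cerebrospinal fluid. They come from embryos at E12.5 (embryonic day), the day of birth (P0), postnatal day 14 (P14) and 6 months (A6m), with 3 libraries per age. No genotype or treatment separates these 12 libraries, and the labels used here give neither the animals' sex, the ventricle nor a sequencing batch. Values are TPM, transcript abundances that correct for transcript length and set every library to the same total.

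A ribosome that starts to make a secretory protein is held by SRP, which reads the signal sequence and docks at the SRP receptor on the ER membrane. The chain then passes through the Sec61 channel, with TRAP beside it, and signal peptidase removes the signal sequence. Inside, Hspa5 (BiP), Hsp90b1 (Grp94) and the lectin chaperones Calr and Canx hold the chain while disulfide isomerases form its bonds. When unfolded protein builds up, the sensors Ern1 and Atf6 and the transcription factor Xbp1 raise chaperone genes. The choroid plexus epithelium is a secretory epithelium, known above all for exporting transthyretin, the product of Ttr.

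Several chaperone promoters carry the ER stress response element, the site known to bind Atf6 together with a CCAAT-binding factor, written CCAAT, 9 bases of any kind, then CCACG. In RefSeq promoter windows of 250 bases before to 50 bases after the gene start, on both strands, it occurred in 5 of the 32 members found in that table, and in 37 of the 27025 genes of the table (0.137%). These 5 were Calr, Canx, Hsp90b1, Hspa5 and Pdia6. The matches are shown because their genes include the chaperones described further on, each read in the direction of the element with CCAAT and CCACG in capitals and 5 further bases on either side.
Calr, GRCm38.p6 chr8:84847070-84847098, plus strand: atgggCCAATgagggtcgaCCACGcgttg
Canx, GRCm38.p6 chr11:50325795-50325823, minus strand: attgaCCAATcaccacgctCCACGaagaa
Hsp90b1, GRCm38.p6 chr10:86705633-86705661, minus strand: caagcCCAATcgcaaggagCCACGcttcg
Hsp90b1, GRCm38.p6 chr10:86705528-86705556, plus strand: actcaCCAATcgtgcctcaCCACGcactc
Hspa5, GRCm38.p6 chr2:34772020-34772048, plus strand: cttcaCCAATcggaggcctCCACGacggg
Pdia6, GRCm38.p6 chr12:17266486-17266514, plus strand: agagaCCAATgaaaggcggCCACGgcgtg
The element of Hspa5 lay 65 to 47 bases before the RefSeq start of its window, and those of the other genes lay 212 to 80 bases before theirs. RefSeq starts can differ from the gene coordinates printed further on, which come from GENCODE. By those coordinates the Hspa5 element lies inside the gene, so the distances hold for the RefSeq starts only. A second form, ATTGG, 1 base of any kind, then CCACG, was found in none of the 32 members and in 0.0444% of all genes, and the letters TGACGTGG, an element read by Xbp1 and Atf6, in none of the 32 and in 0.714%. CCACG by itself occurred in 21 of the 32 members and in 35.5% of all genes. These are matches of letters in 1 window per annotated start. They do not show binding, and an absent match says only that the letters are not in that window.

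Across the 4 ages the machinery did not move as a block. As deposited, 11 of the 39 tested members were higher at A6m than at E12.5 and 19 were lower. The test was limma on log2(TPM + 1) with Benjamini-Hochberg adjustment over all 17422 tested genes, and a call is an adjusted p under 0.05. Of all tested genes, 15.2% were called higher and 62.0% lower in the same comparison, and the median gene had a log2 difference of -0.71. Ttr had 11199.8, 14128 and 21003 TPM at E12.5, 143164, 141192 and 141475 TPM at P0, 151576, 164598 and 168699 TPM at P14 and 137436, 139480 and 146229 TPM at A6m. It rose mostly between E12.5 and P0, whereas the median gene moved by -0.27 at P0 against E12.5 and by -0.41 at P14 against P0. The part of Ttr in the shift was not tested. Differences printed without a named scale or setting are as deposited. Because of the shift, many are also given after median-of-ratios scaling. That scaling divides each library by its median ratio over the 19075 genes above 0 in every library. It leaves the median gene at -0.01. On that scale 24 members were higher and 9 lower, beside 35.4% and 35.8% of all tested genes. The median over the 39 tested members was -0.28 as deposited and 0.56 after scaling.

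Called in the same direction on both scales at A6m against E12.5 were 20 members, and the share of all tested genes called alike on both was not computed. The count therefore does not set these 20 apart from the rest of the table. The 11 higher ones were the chaperones Hspa5, Hsp90b1 and Sdf2l1, the disulfide isomerase Pdia4, the regulators Xbp1, Atf6 and Ern1, the channel partners Sec62 and Sec63, the receptor subunit Srpr and the peptidase subunit Sec11c. The 9 lower ones were the channel subunits Sec61a1, Sec61a2 and Sec61b, the TRAP subunits Ssr2 and Ssr3, the SRP subunits Srp19 and Srp68, the peptidase subunit Sec11a and the disulfide isomerase Pdia5. These 11 and 9 also kept their calls with quantile normalization and with rescaling after removal of the 10 most abundant genes. Both of these settings called further members higher as well. Scaling raises the median difference of this comparison, so a call of higher as deposited is kept almost by construction and gains little from it. Atf6 lost its call when certain libraries were left out, and the other 19 kept theirs. Spcs1, Pdia6, Ssr4 and Srp14 were called lower as deposited and higher after scaling, so no direction is given for them.

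**Figure D1:**
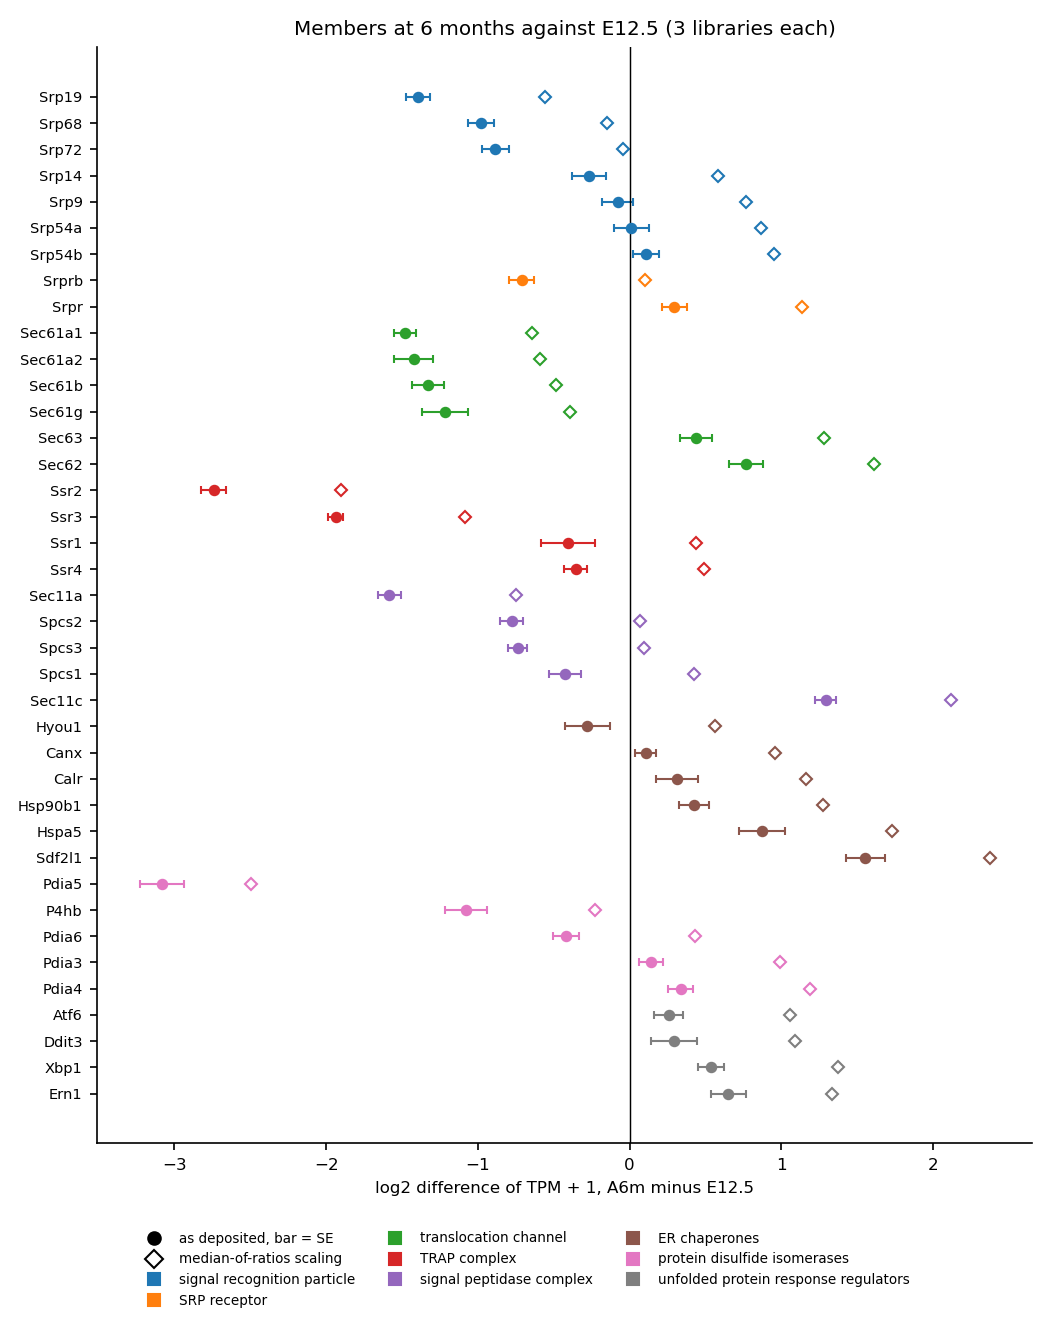
The horizontal axis is the log2 difference of TPM + 1, A6m minus E12.5, for the 39 tested members grouped by role (3 libraries per age). Filled circles with SE bars are values as deposited and open diamonds are values after median-of-ratios scaling. Ssr2, Ssr3, Sec11a, Sec61a1 and Pdia5 lie left of 0 with both symbols, and Sec11c, Sdf2l1, Hspa5 and Sec62 lie right of 0 with both.

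The steps between ages differed. At P0 against E12.5, 5 members were called higher and 18 lower as deposited (18.6% and 43.7% of all tested genes), and 8 and 9 after scaling (29.0% and 31.0%). At P14 against P0 the counts were 8 higher and 18 lower as deposited (5.33% and 53.5% of all genes), but 21 higher and 3 lower after scaling (22.7% and 19.8%). At A6m against P14 they were 6 and 5 as deposited (8.78% and 12.1%), and 8 and 4 after scaling (15.2% and 14%). That count of 5 lower is set by single libraries: it was 3 without P14 replicate 1 or A6m replicate 2 and 2 without P14 replicate 3 or A6m replicate 1. A moderated F-test over the 4 ages called 36 of the 39 members, beside 85.1% of all genes, and the exceptions were Canx, Ddit3 and Srp14. As deposited, 4 of the 6 chaperones were called higher at P14 against P0 and 1 at A6m against P14. After scaling the counts were 6 and 1.

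**Figure D2:**
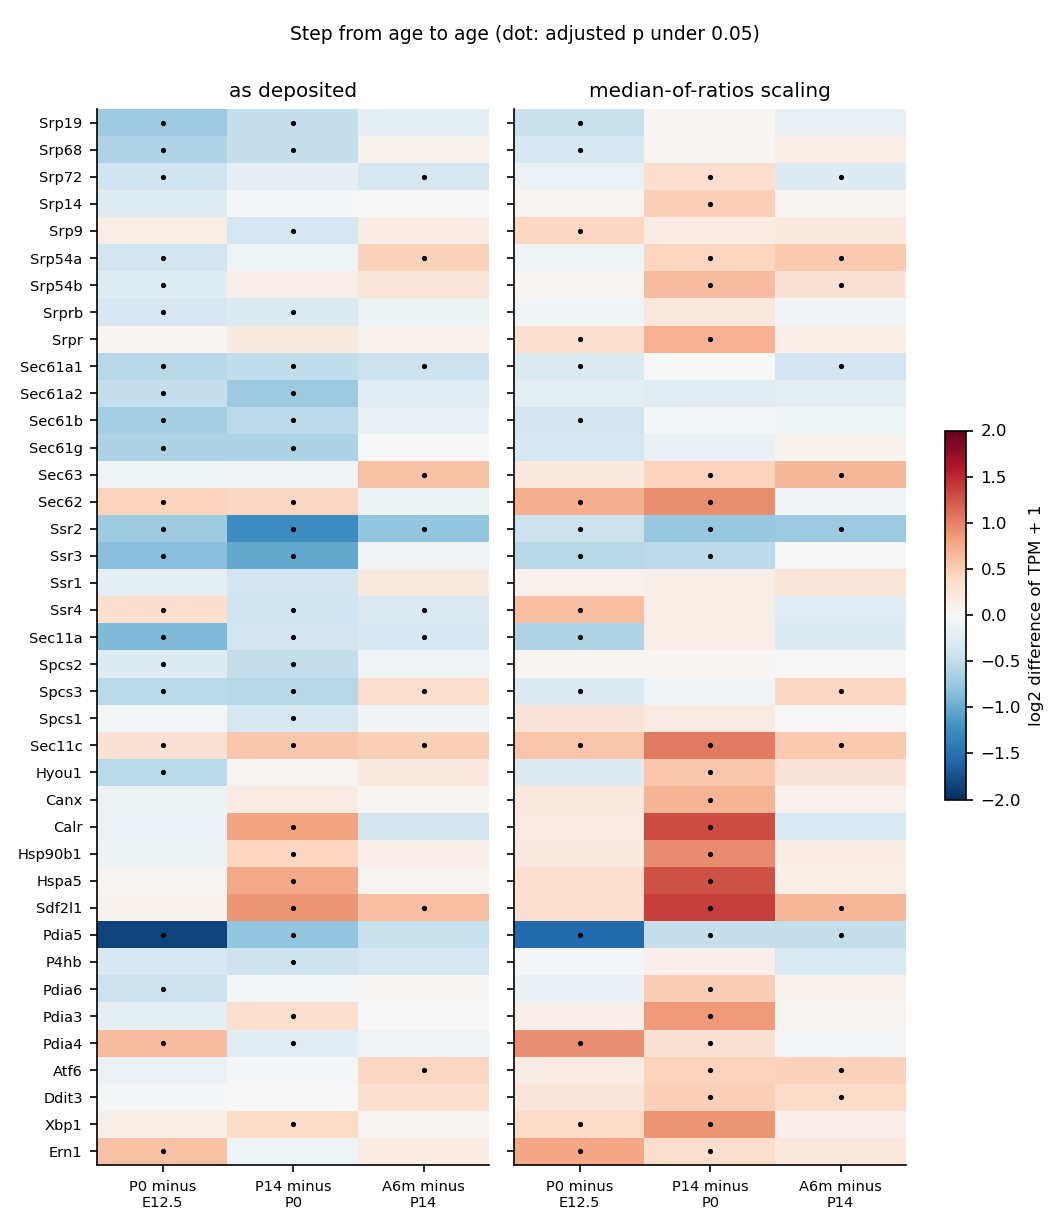
Rows are the 39 tested members by role and columns the differences P0 minus E12.5, P14 minus P0 and A6m minus P14, in a left panel as deposited and a right panel after scaling. Colour gives the log2 difference of TPM + 1 (red higher at the later age, blue lower) and dots mark limma calls. Ssr2 and Ssr3 are blue with dots in the P0 and P14 columns of both panels, and Hspa5, Calr, Hsp90b1 and Sdf2l1 are red with dots in the P14 column of both.

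Several facts of the libraries stand beside every result. Summed TPM of 10 choroid plexus epithelium markers was 173255 to 179385 TPM at A6m, against 12717 to 23554 TPM at E12.5, and all 10 passed the filter. Ttr made up most of these sums, and as deposited 7 of the 10 markers were called higher at A6m, while Otx2, Aqp1 and Clic6 were called higher after scaling alone. Markers of 8 other classes were summed in the same way. At A6m against E12.5, 10 proliferation genes summed to 11.1 to 14.3 TPM, against 889.7 to 954 TPM, and 9 erythroid genes to 148 to 556 TPM, against 53063 to 59349.8 TPM. The 8 fibroblast genes summed to 182 to 254 TPM, against 1082 to 1502 TPM, 8 endothelial genes to 27.5 to 43.3 TPM, against 419 to 461 TPM, and 8 macrophage genes to 24.9 to 41.8 TPM, against 149.7 to 195 TPM. Neural progenitor markers summed to 38.0 to 48.5 TPM at A6m, against 969 to 1450.2 TPM at E12.5, and neuronal markers to 12.3 to 13.8 TPM, against 28.1 to 119 TPM. On average Vim made up most of the neural progenitor sums, with 37.4 TPM at A6m and 999 TPM at E12.5. Dcn of the fibroblast list averaged 114 TPM at A6m, against 43.9 TPM at E12.5, and Syt1 of the neuronal list 3.48 TPM, against 1.16 TPM. Both were called higher on both scales. Snap25 of the neuronal list averaged 6.59 TPM at A6m, against 3.85 TPM at E12.5. Of the 5 tested neuronal markers, 1 was called higher and 3 lower as deposited, and 2 and 3 after scaling. The part of these cell classes in the results was not tested, and in bulk tissue fewer cells of a type and less RNA per cell cannot be told apart. Xist, expressed from the inactive X chromosome, measured 148 to 155 TPM in every A6m library and at most 0.81 TPM at P0 and P14, while the Y-linked Ddx3y stood at or under 0.37 TPM at A6m and at 80.1 to 117 TPM at P0 and P14. At E12.5, replicates 1, 2 and 3 had 139, 0.389 and 89.5 TPM of Xist beside 9.26, 54.4 and 50.9 TPM of Ddx3y, so that 2 of them held both transcripts and none matched the A6m libraries. Age and this difference cannot be told apart in the comparisons of A6m with P14 or with E12.5. Nor can they in that of P0 with E12.5. There all E12.5 libraries had less Ddx3y than any P0 library, and E12.5 replicates 1 and 3 had far more Xist.

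The SRP subunits differed among themselves. Srp19, which helps SRP assemble on its RNA (chr18:34330847-34336599, plus strand), had 90.7, 85.9 and 85.2 TPM at E12.5, 51.3, 53.1 and 53.0 TPM at P0, 35.2, 35.1 and 43.0 TPM at P14 and 31.7, 33.1 and 32.9 TPM at A6m. As deposited, every later age lay wholly under the one before it, and the log2 difference of A6m against E12.5 was -1.39 ± 0.077 (SE, adjusted p = 2.44e-08) as deposited and -0.56 after scaling. P14 against P0 had -0.47 as deposited and 0.033, not called, after scaling. Srp68 fell as well on both scales, with -0.98 as deposited and -0.15 after scaling. Srp9, which pairs with Srp14 to slow the ribosome, had 94.8, 77.5 and 97.7 TPM at E12.5, 102, 92.3 and 101 TPM at P0, 76.6, 68.6 and 85.6 TPM at P14 and 80.4, 83.8 and 90.1 TPM at A6m. The A6m and E12.5 libraries overlapped, the difference of -0.079 ± 0.10 (SE, adjusted p = 0.499) did not pass the test, and its 95% interval ran from -0.31 to 0.15. After scaling the same difference was 0.77 and was called. Srp54a, the subunit that binds the signal sequence (chr12:55080262-55115367, plus strand), had 174, 227 and 217 TPM at E12.5, 165, 158 and 153 TPM at P0, 175, 143 and 133 TPM at P14 and 209.8, 210.3 and 199 TPM at A6m. Its A6m libraries lay above all P14 libraries, with 0.46 ± 0.11 (SE, adjusted p = 0.0138), but that call was lost without P14 replicate 2 or 3 (adjusted p = 0.0515 and 0.0591). Against E12.5 its A6m difference was 0.012 as deposited, not called, and 0.86 after scaling, called higher. Srp54a and Srp54b are near-identical neighbouring copies, so the split of reads between them is uncertain. Srp72 was lower at A6m than at P14 by a log2 difference of -0.32 (adjusted p = 0.0286), a call that was lost when any single library of the 2 ages was left out. Against E12.5 its A6m difference was -0.89 as deposited, called lower, and -0.042 after scaling, not called.

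Of the receptor subunits, Srpr, the GTPase that meets SRP, averaged 65.6 ± 7.44 TPM at E12.5, 67.3 ± 2.74 TPM at P0, 76.4 ± 4.87 TPM at P14 and 80.4 ± 2.16 TPM at A6m. It was higher at A6m than at E12.5 on both scales (0.30 as deposited, 1.14 after scaling). Srprb, its membrane anchor, averaged 24.6 ± 0.939 TPM at E12.5, 19.4 ± 2.04 TPM at P0, 15.8 ± 0.894 TPM at P14 and 14.7 ± 0.201 TPM at A6m, with differences of -0.71 as deposited and 0.10 after scaling, where it was not called. Within each library, where the total cancels, Srpr stood at 2.66 ± 0.233 (E12.5), 3.48 ± 0.250 (P0), 4.86 ± 0.505 (P14) and 5.49 ± 0.206 (A6m) times Srprb. This ratio and those given for other genes were picked after the values had been seen and carry no test. Some exons of Srpr overlap by at most 50 bases those of Fam118b on the opposite strand.

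The channel itself and its partners moved apart. Sec61a1, the pore subunit (chr6:88503579-88518905, minus strand), had 66.8, 74.1 and 75.1 TPM at E12.5, 47.6, 51.2 and 46.5 TPM at P0, 37.0, 32.3 and 33.4 TPM at P14 and 25.5, 24.5 and 25.5 TPM at A6m. As deposited, every later age lay wholly under the one before it. The log2 difference of A6m against E12.5 was -1.48 ± 0.072 (SE, adjusted p = 9.18e-09) as deposited and -0.64 after scaling, and that of A6m against P14 was -0.43 ± 0.072 (SE, adjusted p = 0.00176) as deposited and -0.38 after scaling. The difference of P14 against P0 depended on the scale, at -0.49 as deposited and 0.014 after scaling. Sec61b, a small subunit, had 219.6, 165 and 189 TPM at E12.5, 127, 122 and 111 TPM at P0, 81.0, 76.3 and 91.7 TPM at P14 and 79.3, 71.2 and 74.2 TPM at A6m. It was lower at P0 than at E12.5 on both scales, and lower at A6m than at E12.5 with -1.33 ± 0.11 (SE, adjusted p = 4.84e-07) as deposited and -0.48 after scaling. Sec61g, the other small subunit, fell as deposited, with -1.22 ± 0.15 (SE, adjusted p = 2.03e-05) at A6m against E12.5, while its scaled value of -0.39 was not called. Sec61a2, a second pore gene, made up 45.3 ± 1.90% (E12.5), 46.8 ± 1.20% (P0), 42.5 ± 0.712% (P14) and 46.1 ± 3.89% (A6m) of the summed TPM of both pore genes. An exon of Sec61a2 overlaps 909 bases of Nudt5 on the opposite strand, and since the use of strand in the quantification is not stated, reads of the pair may not be told apart.

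Sec63 carries the J domain that calls Hspa5 to the channel, and Sec62 helps chains enter after translation. Sec63 (chr10:42761496-42832514, plus strand) had 38.5, 49.9 and 51.4 TPM at E12.5, 41.8, 41.2 and 47.5 TPM at P0, 44.0, 41.7 and 39.1 TPM at P14 and 63.7, 65.9 and 59.7 TPM at A6m. The A6m libraries lay above those of every earlier age, with 0.59 ± 0.11 (SE, adjusted p = 0.00269) against P14 and 0.44 ± 0.11 (SE, adjusted p = 0.00275) against E12.5 as deposited, and 0.64 and 1.28 after scaling. Sec62, singled out after its values were seen, averaged 99.5 ± 15.0 TPM at E12.5, 135 ± 0.988 TPM at P0, 182 ± 24.3 TPM at P14 and 169 ± 7.55 TPM at A6m, and it rose at P0 and again at P14 on both scales. Its difference at A6m against E12.5 was 0.76 ± 0.11 (SE, adjusted p = 7.19e-05) as deposited and 1.61 after scaling. Within a library, Sec62 stood at 1.38 ± 0.149 (E12.5), 2.80 ± 0.155 (P0), 5.35 ± 0.965 (P14) and 6.71 ± 0.434 (A6m) times Sec61a1.

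The 4 TRAP subunits sit in a single complex, and their mRNAs changed unequally. Ssr2, the beta subunit (chr3:88575876-88588419, plus strand), had 180.5, 203 and 194 TPM at E12.5, 124, 112 and 116 TPM at P0, 45.7, 48.8 and 50.2 TPM at P14 and 26.8, 25.9 and 31.3 TPM at A6m. No libraries of different ages overlapped, and each step was called lower on both scales. The differences were -0.71 ± 0.080 (SE, adjusted p = 1.87e-05) at P0 against E12.5, -1.26 ± 0.080 (SE, adjusted p = 1.5e-06) at P14 against P0, -0.77 ± 0.080 (SE, adjusted p = 7.43e-05) at A6m against P14 and -2.74 ± 0.080 (SE, adjusted p = 2.68e-10) at A6m against E12.5, and the last was -1.90 after scaling. Ssr3, the gamma subunit (chr3:65379655-65392623, minus strand), had 265, 269 and 281 TPM at E12.5, 153, 154 and 147 TPM at P0, 76.1, 72.6 and 72.0 TPM at P14 and 69.6, 69.7 and 71.5 TPM at A6m. It fell by P0 and again by P14, with -0.84 ± 0.050 (SE, adjusted p = 1.49e-07) and -1.03 ± 0.050 (SE, adjusted p = 3.61e-07), and A6m differed from E12.5 by -1.94 ± 0.050 (SE, adjusted p = 1.26e-10) as deposited and -1.09 after scaling. Ssr4, the delta subunit, encoded on the X chromosome (chrX:73787028-73790830, plus strand), had 92.2, 86.6 and 97.7 TPM at E12.5, 120.2, 119 and 108 TPM at P0, 86.6, 81.5 and 95.0 TPM at P14 and 71.7, 68.5 and 75.4 TPM at A6m. It was higher at P0 than at E12.5, by 0.32 ± 0.075 (SE, adjusted p = 0.00313), and lower at A6m than at P14 as deposited, with -0.28 ± 0.075 (SE, adjusted p = 0.022). The scaled value of the second, -0.23, was not called. As deposited that call was also lost without P14 replicate 1 or 3 or A6m replicate 1 or 2, with adjusted p between 0.0571 and 0.0924. The differences in Xist and Ddx3y given above stand beside both of these steps of Ssr4. Ssr1, the alpha subunit, ranged from 41.1 TPM in a P14 library to 89.6 TPM in an E12.5 library, and in E12.5 replicate 1 it stood at 53.1 TPM, against 86.2 and 89.6 TPM in the other 2.

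Summed over the 4 genes, TRAP mRNA averaged 633 ± 37.3 TPM at E12.5, 449 ± 9.51 TPM at P0, 259 ± 13.1 TPM at P14 and 226 ± 7.15 TPM at A6m. The share of Ssr2 in that sum was 30.4 ± 1.06% (E12.5), 26.1 ± 0.876% (P0), 18.7 ± 1.34% (P14) and 12.4 ± 0.872% (A6m), and the share of Ssr4 was 14.6 ± 1.09% (E12.5), 25.8 ± 1.09% (P0), 33.8 ± 1.33% (P14) and 31.8 ± 0.738% (A6m). Ssr1 made up 11.96 ± 2.58% (E12.5), 14.4 ± 1.27% (P0), 19.0 ± 2.13% (P14) and 24.7 ± 1.04% (A6m), and Ssr3 43.0 ± 1.65% (E12.5), 33.7 ± 0.748% (P0), 28.5 ± 1.52% (P14) and 31.1 ± 0.496% (A6m). The share of Ssr2 was lower, and those of Ssr1 and Ssr4 higher, in every later library than in any E12.5 library. A factor that multiplies a whole library leaves these shares as they are.

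Signal peptidase has 2 alternative catalytic subunits, Sec11a and Sec11c, and these moved in opposite directions. Sec11a (chr7:80904889-80947780, minus strand) had 98.5, 87.9 and 93.1 TPM at E12.5, 52.4, 45.7 and 52.1 TPM at P0, 38.6, 36.0 and 40.2 TPM at P14 and 28.7, 30.9 and 31.6 TPM at A6m. As deposited, each later age lay wholly under the one before. The log2 difference of A6m against E12.5 was -1.59 ± 0.076 (SE, adjusted p = 8.24e-09) as deposited and -0.75 after scaling, and P0 already differed from E12.5 by -0.88 ± 0.076 (SE, adjusted p = 2.47e-06). P14 against P0 depended on the scale, at -0.38 as deposited and 0.13, not called, after scaling. Against P14, A6m was lower as deposited, with -0.32 ± 0.076 (SE, adjusted p = 0.0118), a call that was lost after scaling (-0.27) and without P14 replicate 3 or A6m replicate 1. Sec11c had 27.7, 26.2 and 26.9 TPM at E12.5, 35.4, 31.5 and 32.3 TPM at P0, 48.8, 45.4 and 50.9 TPM at P14 and 64.7, 66.5 and 71.2 TPM at A6m. Here each later age lay wholly above the one before, and every step was called higher on both scales. The step values were 0.28 ± 0.069 (SE, adjusted p = 0.00408), 0.54 ± 0.069 (SE, adjusted p = 0.000105) and 0.47 ± 0.069 (SE, adjusted p = 0.000714), and A6m differed from E12.5 by 1.29 ± 0.069 (SE, adjusted p = 1.8e-08) as deposited and 2.12 after scaling. Of the summed TPM of both genes, Sec11c held 22.5 ± 0.485% (E12.5), 39.8 ± 1.34% (P0), 55.8 ± 0.0287% (P14) and 69.0 ± 0.559% (A6m). An exon of Sec11a overlaps Nmb by 163 bases on the same strand, and Nmb averaged 3.03 TPM.

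The noncatalytic subunits Spcs1, Spcs2 and Spcs3 depended on the scale or on the step. Spcs2 had 153, 144 and 181 TPM at E12.5, 135, 129 and 135 TPM at P0, 92.7, 94.3 and 98.8 TPM at P14 and 90.4, 92.1 and 93.5 TPM at A6m. The A6m libraries lay under the E12.5 libraries, with -0.78 ± 0.077 (SE, adjusted p = 2.84e-06) as deposited, while the scaled value of 0.071 was not called. Spcs3, which holds the complex together, was lower at P0 than at E12.5 and higher at A6m than at P14 on both scales, the second by 0.35 ± 0.064 (SE, adjusted p = 0.00279). Exons of Spcs1 overlap 223 bases of Glt8d1 on the opposite strand, and Glt8d1 averaged 48.9 TPM.

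**Figure D3:**
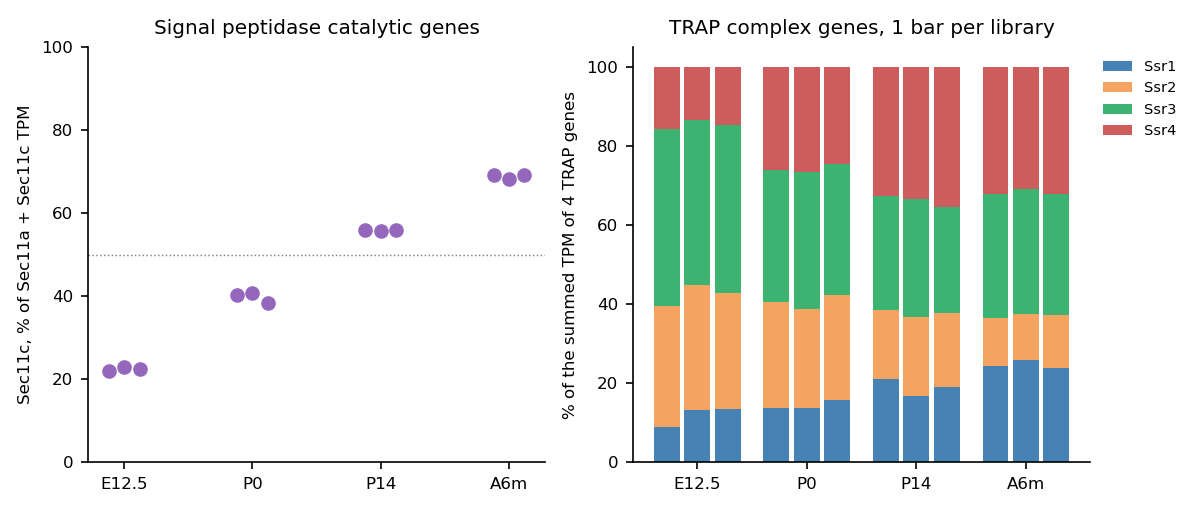
The left panel shows 1 point per library, with the age on the horizontal axis and the percent of Sec11a plus Sec11c TPM that is Sec11c on the vertical axis (dotted line at 50%), and the right panel 1 stacked bar per library with each gene's percent of the summed TPM of the 4 TRAP genes. Sec11c holds 68.3% to 69.3% in the A6m libraries, against 22.0% to 23.0% in the E12.5 libraries, and Ssr2 holds 11.7% to 13.4% at A6m, against 29.3% to 31.4% at E12.5.

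Of the 8 roles, the ER chaperones had the highest summed level, although Sdf2l1 and Hyou1 were themselves low. Their summed TPM was 2303 ± 99.1 TPM at E12.5, 2163 ± 103 TPM at P0, 3268 ± 181 TPM at P14 and 3152 ± 541 TPM at A6m. Hspa5, the central ER Hsp70 (chr2:34771970-34777547, plus strand), had 424, 371 and 439 TPM at E12.5, 444, 407 and 428 TPM at P0, 749, 675 and 744 TPM at P14 and 789, 954 and 566 TPM at A6m. The E12.5 and P0 libraries overlapped, and all P14 and A6m libraries lay above them. P14 was higher than P0 by 0.76 ± 0.15 (SE, adjusted p = 0.00165), and A6m higher than E12.5 by 0.87 ± 0.15 (SE, adjusted p = 0.000288) as deposited and 1.73 after scaling. Hsp90b1, the ER Hsp90 (chr10:86690209-86705509, minus strand), had 674, 718 and 717 TPM at E12.5, 694, 610.1 and 653 TPM at P0, 943, 846 and 853 TPM at P14 and 953, 1081 and 813 TPM at A6m. It showed the same order, with 0.43 ± 0.098 (SE, adjusted p = 0.00332) at P14 against P0 and 0.42 ± 0.098 (SE, adjusted p = 0.00211) at A6m against E12.5 as deposited, and 0.95 and 1.28 after scaling. Its exons overlap other transcripts on both strands, the most abundant of them at a mean of 8.15 TPM.

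Calr, a lectin chaperone for glycoproteins and a calcium store (chr8:84841850-84846934, minus strand), had 714, 915 and 716 TPM at E12.5, 748, 672 and 732 TPM at P0, 1331, 1222 and 1168 TPM at P14 and 1051, 1103 and 769.9 TPM at A6m. P14 lay above P0 in every library, by 0.79 ± 0.14 (SE, adjusted p = 0.000711). At A6m, replicate 3 lay within the E12.5 range and the other 2 above it, and the difference of A6m against E12.5 was 0.31 ± 0.14 (SE, adjusted p = 0.0602), not called as deposited. It was called without A6m replicate 3 (0.47, adjusted p = 0.00364), without E12.5 replicate 2 (0.43, adjusted p = 0.0156), and after scaling (1.16). Canx, its membrane-bound counterpart, differed by 0.11 ± 0.069 (SE, adjusted p = 0.188), with a 95% interval from -0.048 to 0.26, and by 0.96 after scaling.

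Sdf2l1, a partner of Hspa5 in the ER lumen (chr16:17130138-17132383, minus strand), had 19.5, 17.3 and 16.3 TPM at E12.5, 19.9, 17.1 and 18.8 TPM at P0, 33.5, 34.1 and 38.3 TPM at P14 and 56.2, 64.1 and 43.4 TPM at A6m. The E12.5 and P0 libraries overlapped, all P14 libraries lay above them, and all A6m libraries lay above P14. P14 was higher than P0 by 0.89 ± 0.13 (SE, adjusted p = 0.000232), A6m higher than P14 by 0.60 ± 0.13 (SE, adjusted p = 0.00787), and A6m higher than E12.5 by 1.55 ± 0.13 (SE, adjusted p = 7.05e-07) as deposited and 2.37 after scaling. Hyou1, a large Hsp70 that exchanges the nucleotide of Hspa5, ran differently as deposited. It was lower at P0 than at E12.5 with -0.54 ± 0.15 (SE, adjusted p = 0.0081), and the scaled value of -0.26 was not called. At P14 against P0 and at A6m against E12.5 it was not called as deposited. After scaling it was called higher in both, as were all 6 chaperones. Of the 5 genes with the promoter element, Calr, Hsp90b1 and Hspa5 were higher at P14 than at P0 on both scales, whereas Canx (0.17 ± 0.069 SE, adjusted p = 0.056) and Pdia6 (-0.018 ± 0.087 SE, adjusted p = 0.878) were not called as deposited and were called higher after scaling (0.68 and 0.50). Canx was also called as deposited without P14 replicate 2 (0.23, adjusted p = 0.0237), E12.5 replicate 1 or E12.5 replicate 3. Sdf2l1, whose promoter window held no match, rose in that step. Hyou1 was not found among the promoter sequences, so whether it carries the element is not known here.

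**Figure D4:**
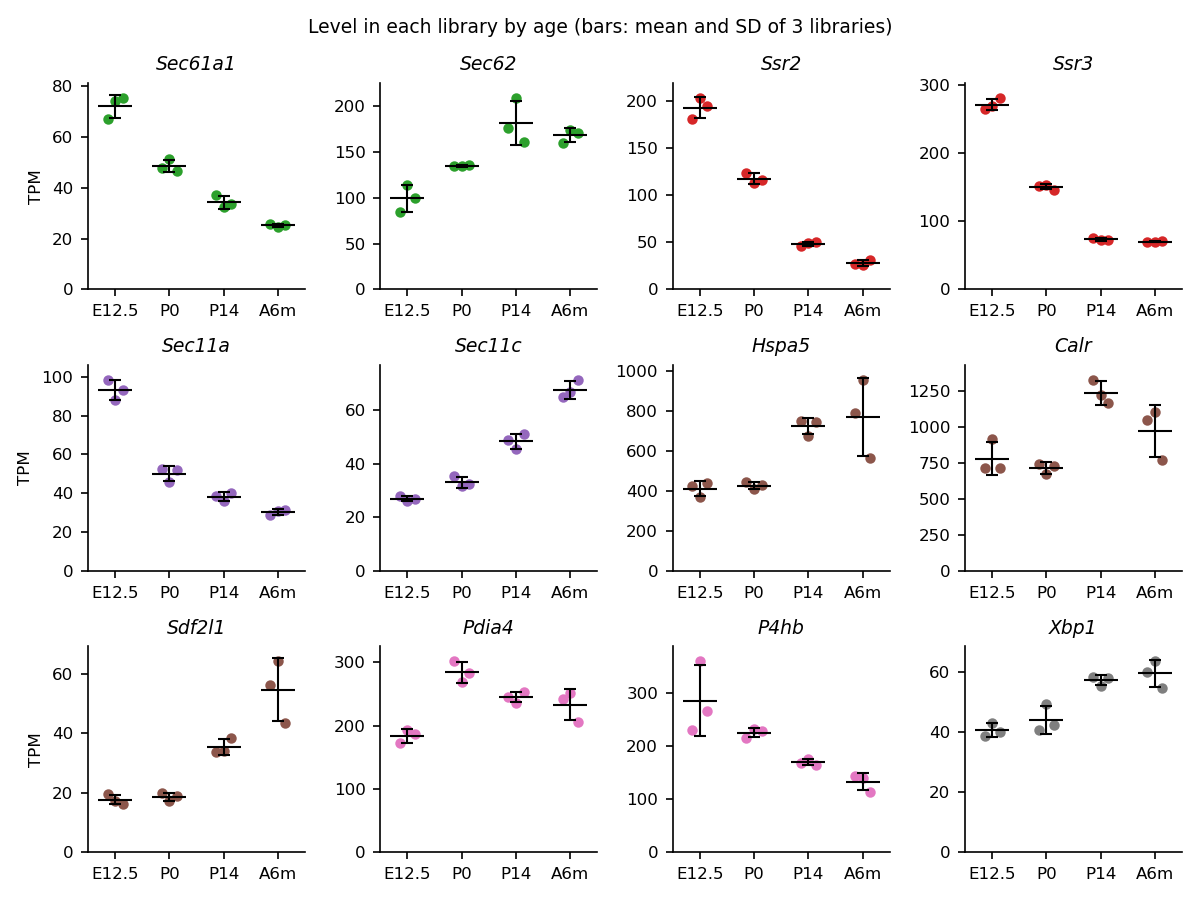
Each panel is 1 of 12 members, with the age on the horizontal axis and TPM on a vertical axis that starts at 0. Points are libraries (3 per age), long bars are means and whiskers are SD. Hspa5 lies between 566 and 954 TPM in all P14 and A6m libraries, against 371 to 444 TPM in all E12.5 and P0 libraries, and Ssr2 lies between 25.9 and 31.3 TPM at A6m, against 180.5 to 203 TPM at E12.5.

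Among the disulfide isomerases, Pdia3 (ERp57), which works with Calr and Canx (chr2:121413775-121438687, plus strand), had 357, 366 and 378 TPM at E12.5, 328, 315 and 328 TPM at P0, 444, 385 and 395 TPM at P14 and 411, 443 and 362 TPM at A6m. It was higher at P14 than at P0, with no overlap, by 0.33 ± 0.079 (SE, adjusted p = 0.00443). A6m differed from E12.5 by 0.14 ± 0.079 (SE, adjusted p = 0.132) as deposited, which was called only without A6m replicate 3 among the libraries left out (adjusted p = 0.0239), and by 0.99 after scaling. Pdia4 (ERp72) had 172, 193 and 187 TPM at E12.5, 302, 269 and 283 TPM at P0, 246, 237 and 253 TPM at P14 and 241, 252 and 206 TPM at A6m. P0 lay above E12.5 by 0.62 ± 0.081 (SE, adjusted p = 5.55e-05) and A6m above E12.5 by 0.34 ± 0.081 (SE, adjusted p = 0.00278) as deposited, and both calls held after scaling. The P14 libraries lay lower than those of P0 with -0.21 ± 0.081 (SE, adjusted p = 0.0439) as deposited, a call lost without any of 6 single libraries, and higher by 0.30 after scaling, so no direction is given for that step.

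P4hb, the founding disulfide isomerase and a subunit of collagen prolyl 4-hydroxylase (chr11:120560298-120573253, minus strand), had 231, 360.5 and 266 TPM at E12.5, 216, 232 and 229 TPM at P0, 169.5, 176 and 164 TPM at P14 and 144, 141 and 115 TPM at A6m. All A6m libraries lay under all E12.5 libraries, with -1.08 ± 0.14 (SE, adjusted p = 2.78e-05) as deposited, but the scaled difference of -0.23 was not called. Pdia5, singled out after its values were seen, averaged 12.4 ± 2.03 TPM at E12.5, 2.70 ± 0.543 TPM at P0, 1.14 ± 0.146 TPM at P14 and 0.571 ± 0.110 TPM at A6m, with the lowest log2 difference of the 39 tested members on both scales, -3.08 ± 0.15 (SE, adjusted p = 7.77e-09) as deposited and -2.49 after scaling. At A6m it lay under the 1 TPM pseudocount in all libraries. Of the 7 tested fibroblast markers 6 were called lower and Dcn higher at A6m against E12.5 on both scales, and their part in P4hb and Pdia5 was not tested.

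The 4 regulators were far lower in level than the chaperones, with a summed 73.6 ± 7.40 TPM at E12.5, 77.5 ± 5.21 TPM at P0, 89.9 ± 4.04 TPM at P14 and 101 ± 5.90 TPM at A6m. Xbp1, the transcription factor (chr11:5520659-5525893, plus strand), had 38.6, 43.1 and 40.1 TPM at E12.5, 40.5, 49.2 and 42.4 TPM at P0, 58.2, 55.3 and 58.1 TPM at P14 and 60.1, 63.5 and 54.7 TPM at A6m. The P14 and A6m libraries lay above all of E12.5 and P0, with 0.37 ± 0.084 (SE, adjusted p = 0.00306) at P14 against P0 and 0.54 ± 0.084 (SE, adjusted p = 0.000117) at A6m against E12.5 as deposited, and 1.37 for the second after scaling. Gene-level TPM does not separate spliced from unspliced Xbp1, so its activation is not measured. Plasma cells are another rich source of Xbp1. Their markers and those of B cells summed to 12.6 to 13.6 TPM at A6m, against 10.9 to 13.3 TPM at E12.5, but the members of that list moved apart. Igkc, an antibody light chain, averaged 10.4 TPM at A6m, against 0.209 TPM at E12.5, and was called higher on both scales, while Ighm, a heavy chain, averaged 1.69 TPM, against 7.51 TPM, and was called lower on both. Jchain lay at or under 0.68 TPM in every library and Cd79a was listed at 0 at A6m, and the part of these cells in the Xbp1 levels was not tested. Ern1, the sensor that splices Xbp1, averaged 3.46 ± 0.385 TPM at E12.5, 5.67 ± 0.732 TPM at P0, 5.30 ± 0.570 TPM at P14 and 5.99 ± 0.373 TPM at A6m, and rose at P0 by 0.58 ± 0.12 (SE, adjusted p = 0.00117). Atf6, the other sensor, averaged 14.8 ± 1.83 TPM at E12.5, 13.5 ± 0.139 TPM at P0, 13.2 ± 1.02 TPM at P14 and 17.8 ± 0.987 TPM at A6m. It was higher at A6m than at E12.5 by 0.26 ± 0.095 (SE, adjusted p = 0.0278), but that call was lost without E12.5 replicate 1 (0.0833), A6m replicate 1 (0.0982) or A6m replicate 2 (0.0514), in adjusted p. Ddit3 (CHOP), the factor tied to prolonged stress (chr10:127290774-127296288, plus strand), had 11.2, 18.2 and 14.9 TPM at E12.5, 12.9, 13.5 and 16.5 TPM at P0, 15.3, 13.0 and 14.2 TPM at P14 and 18.5, 19.0 and 16.6 TPM at A6m. Its libraries overlapped between E12.5 and A6m, and the difference of 0.29 ± 0.15 (SE, adjusted p = 0.102) did not pass the test, with a 95% interval from -0.045 to 0.63. Without E12.5 replicate 2 it was called (0.44, adjusted p = 0.0148), as it was after scaling (1.09).

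Other genes of the pathway were taken from 9 lists, and up to 3 called genes per list are named, those with the largest difference of A6m against E12.5. The share of all genes called is the one given above for that comparison. Cochaperones of Hspa5 had 5 of 11 tested genes higher and 3 lower as deposited, and 10 higher after scaling, the other 1 not called, with median log2 differences of -0.068 and 0.75. The 3 named rose: Sil1, a nucleotide exchange factor, averaged 82.5 TPM at A6m, against 21.9 TPM at E12.5 (1.89 ± 0.13 SE, adjusted p = 1.68e-07), Dnajb9 averaged 79.3 TPM at A6m, against 21.9 TPM at E12.5 (1.83 ± 0.13 SE, adjusted p = 1.65e-07) and Dnajc3 averaged 138 TPM at A6m, against 55.1 TPM at E12.5 (1.31 ± 0.097 SE, adjusted p = 2.42e-07). Dnajb9 and Dnajc3 are Hsp40 proteins of the ER lumen. The genes of ER-associated degradation, which returns misfolded chains to the cytosol, had 7 of 17 tested genes higher and 9 lower as deposited, and 12 higher and 1 lower after scaling, with median log2 differences of -0.30 and 0.54. Herpud1, a part of the retrotranslocation complex, rose by 1.29 on the log2 scale, and Edem3, a mannosidase-like protein that marks chains for removal, had a log2 difference of -1.19. Derl3, a derlin, had 1.96, 2.74 and 1.12 TPM at A6m and at most 1.07 TPM in the libraries of the other ages, so it passed the filter through A6m, where it is high, and its call, included in these counts, is no support for a rise. Other regulators and stress targets had 3 of 15 tested genes higher and 8 lower as deposited, and 8 higher and 3 lower after scaling, with median log2 differences of -0.55 and 0.29. Here Asns, an amino acid synthesis gene under Atf4, fell to 2.46 TPM at A6m, against 17.6 TPM at E12.5 (-2.43 ± 0.14 SE, adjusted p = 3.54e-08). Trib3 and Atf6b, a target of Ddit3 and a relative of Atf6, had log2 differences of -1.27 and -1.09.

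The oligosaccharyltransferase, which attaches the glycan as the chain enters, had 2 of 12 tested genes higher and 8 lower as deposited, and 5 higher and 3 lower after scaling, with median log2 differences of -0.81 and 0.036, and its subunits Tmem258, Stt3b and Ddost had -1.68, -1.33 and -1.16. Genes of the glycoprotein folding cycle had 1 of 9 tested genes higher and 7 lower as deposited, and 2 higher and 3 lower after scaling, with median log2 differences of -0.87 and -0.024. Mogs, which trims the glycan, had -1.48, Uggt1, which senses misfolded glycoproteins, -1.13, and Lman1, a cargo lectin, -1.01. Other oxidative folding enzymes had 5 of 14 tested genes higher and 9 lower as deposited, and 9 higher and 4 lower after scaling, with median log2 differences of -0.29 and 0.54. Their leading genes Prdx4, Txndc12 and Erp29 had log2 differences of -1.73, -1.55 and -1.47 as deposited and -0.88, -0.72 and -0.63 after scaling.

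Other insertion factors had 6 of 19 tested genes higher and 13 lower as deposited, and 9 higher and 5 lower after scaling, with median log2 differences of -0.51 and 0.32. Among them Btf3, of the nascent chain-associated complex, and Wrb, a receptor for tail-anchored proteins, had -1.62 and -1.53, and Emc9, of the ER membrane complex, had 1.46. The COPII coat, which buds cargo from the ER, had 1 of 13 tested genes higher and 11 lower as deposited, and 6 higher and 2 lower after scaling, with median log2 differences of -0.69 and 0.16. Sec24c, which selects cargo, had a log2 difference of -1.15 and Sec16a, which organises exit sites, -1.01. Sec16b had 2.68, 1.87 and 1.60 TPM at E12.5 and at most 0.61 TPM in all later libraries, so it passed the filter through E12.5 alone, and its call, included in these counts, is no support for a fall. Collagen folding genes had 1 of 13 tested genes higher and 10 lower as deposited, and 3 higher and 9 lower after scaling, with median log2 differences of -1.57 and -0.78, the lowest medians of the 9 lists on both scales. Serpinh1, the collagen chaperone, averaged 54.1 TPM at A6m, against 642 TPM at E12.5 (-3.55 ± 0.061 SE, adjusted p = 1.51e-11), Fkbp10 averaged 5.31 TPM at A6m, against 55.7 TPM at E12.5 (-3.17 ± 0.070 SE, adjusted p = 5.31e-11) and P4ha3, a prolyl hydroxylase subunit, had a log2 difference of -3.10. The fibroblast marker sums given above run beside this list, and their part in it was not tested. Derl3 and Sec16b aside, the genes named from the 9 lists kept direction and call after scaling, except that Sec16a lost its call at -0.19.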

How the data were processed

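Total RNA came from tissue placed in Trizol and was made into libraries using the Kapa mRNA HyperPrep kit, per the labels' protocols. The deposited values are TPM per gene symbol that the authors made with kallisto on GRCm38, per the submitters' processing notes. Versions, the annotation release, the step from transcripts to genes and the use of strand are not given in the sources used here. Since TPM holds no counts of reads, depth is unknown and no counting interval is given. Of the table's columns, 12 were mapped to the 4 ages and 7 were not used here.

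Genes with TPM of at least 1 in at least 3 libraries became log2(TPM + 1) and were fitted with limma 3.58.1 (eBayes with trend, R 4.3.3) as 4 group means, with Benjamini-Hochberg adjustment over all 17422 tested genes. All adjusted p-values are limma's, and ± values are SD over 3 libraries for levels and SE for differences. A fold on the log2(TPM + 1) scale understates changes of low genes. Each age is described as independent specimens. The p-values rest on a spread between libraries that is shared over the 4 ages and moderated over genes. They therefore do not measure the spread of the compared ages alone. The fit was tested on simulated data. Coordinates are from GENCODE M21 (GRCm38), and promoter sequences from RefSeq (GRCm38.p6), in which 32 of 40 members were found. Those not found were Atf6, Hyou1, Sec11c, Sec61a1, Spcs3, Srp19, Srp68 and Ssr2. No protein sequences were used here.

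Values in every library are given for the 3 tested members with the largest absolute difference in each comparison and a mean of 20 TPM or more at the higher of both ages, and for 15 further members fixed by name. The members and lists were chosen with earlier results of these data known. Alternatives were other pseudocounts, filters, scalings, array weights, the replicate number as a block, the libraries of a comparison alone, and each library left out.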

Additional observations from a re-analysis of the deposited data

How the results depend on the processing

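Pseudocounts of 0.1 and 5, the libraries of a comparison alone and a mean of at least 5 TPM kept every member count within 1.5 times, and none of these settings turned a direction. The scale mattered most, because the whole table shifted between ages. At A6m against E12.5, members called higher numbered 24 with median-of-ratios scaling, 18 with quantile normalization and 18 without the 10 most abundant genes, against 11 as deposited, and members called lower numbered 9 with scaling, against 19. At P0 against E12.5 the higher count was 8 with scaling, 9 with quantile normalization and 10 without the 10 most abundant genes, against 5, and the lower count was 9 with scaling and 9 without the 10 most abundant genes, against 18. At P14 against P0 the higher count was 21 with scaling and 15 with quantile normalization, against 8, and the lower count 3 and 5, against 18. At A6m against P14 the lower count was 3 without a filter and 9 with array quality weights, against 5. With each library left out in turn, higher and lower counts ran from 10 to 13 and 18 to 20 (A6m against E12.5), 5 to 7 and 2 to 7 (A6m against P14), 8 to 10 and 14 to 20 (P14 against P0), and 5 to 5 and 16 to 23 (P0 against E12.5), and the F-test count from 34 to 36. The count of 23 was without E12.5 replicate 1.

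Scaling gave another sign than the deposited values for 10 of the 39 tested members at A6m against E12.5 (7 of them called higher after scaling), 20 at P14 against P0, 12 at P0 against E12.5 and 3 at A6m against P14. Of the differences printed above, these turned at A6m against E12.5 under scaling, removal of the 10 most abundant genes and quantile normalization, with their log2 differences. Ssr4 had 0.49, 0.12 and 0.12, Srp9 0.77, 0.40 and 0.38, and Srp14 0.58, 0.22 and 0.11. Pdia6 had 0.43 and 0.065 and Spcs1 0.42 and 0.055 under the first 2 of these, while Spcs2 had 0.071 and Srprb 0.10 under scaling. Srp54a, near 0 as deposited, had -0.073 with array quality weights, -0.10 without E12.5 replicate 1 and -0.0013 without A6m replicate 2, in a range of -0.10 to 0.086 over the libraries left out. Scaling did not turn Srp54a but moved it to 0.86, called higher. At P14 against P0, Pdia4 had 0.30 with scaling and 0.064 with quantile normalization, Sec61a1 had 0.014, Srp19 0.033 and Sec11a 0.13 with scaling, and Pdia6 had 0.50, 0.19 and 0.24 under the 3 scales and 0.028 without P14 replicate 2, in a range of -0.057 to 0.028 over the libraries left out. These scalings differ from the deposited values by construction in where they put the median gene. Replicate numbers did not pair the libraries: over 18 same-numbered pairs, deviations from the group means correlated at -0.078 to 0.11, with 1 pair over 0.1. With the number as a replicate block, 11 members were called higher and 19 lower at A6m against E12.5, and 17 lower at P14 against P0. Depth per library is unknown, which limits what can be said of low members such as Pdia2, Pdia5 and Ern1.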

Other observations

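The A6m libraries differed among themselves in the folding genes. Replicate 2 was highest and replicate 3 lowest for 9 of the 11 tested chaperones and disulfide isomerases, namely Calr, Canx, Hsp90b1, Hspa5, Hyou1, Pdia3, Pdia4, Pdia6 and Sdf2l1. The same order was seen in 5 of the other 28 tested members and in 9.54% of all 17422 tested genes. Hspa5 had 789, 954 and 566 TPM in A6m replicates 1, 2 and 3, Hyou1 had 54.9, 63.4 and 37.5 TPM, and Sdf2l1 had 56.2, 64.1 and 43.4 TPM. The summed TPM of the 6 chaperones was 3257, 3634 and 2566, whereas that of the 6 channel genes was 369, 373 and 367. This pattern was noticed in the data and carries no test.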
